A study of Mus musculus with 2 samples.

Results

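The perforin and granule release genes studied here were 10 genes named by symbol: Prf1, Srgn, Nkg7, Unc13d, Rab27a, Stx11, Stxbp2, Lyst, Vamp7 and Vamp8. Of these, 9 had a row in the count table of 24091 genes, and Vamp7 was not analysed here. The table came from RNA-seq of total RNA of γδ T cells of mouse spleen, with 1 library titled GDT_minus_IL2 and labelled freshly isolated, and 1 titled GDT_plus_IL2 and labelled IL-2 expanded (fresh and expanded below). The expansion used anti-CD3 on the plate, anti-CD28 in the medium and mouse IL-2 at 100 U/ml for 5 days after a flow cytometry sort, so the comparison joins activation, culture and IL-2. The protocol texts are the same for both libraries and speak of cultured cells for the RNA extraction, so that the first library was uncultured rests on its treatment label and on the series design. The sources used here do not give strain, age or number of mice. With 1 library per group, no difference below has a replicate check and none was tested.

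Killer lymphocytes store perforin and granzymes in secretory lysosomes, bound to the proteoglycan serglycin, and release them at the contact with a target cell. The granule travels along microtubules to the contact site, is docked by the small GTPase Rab27a, primed by the Munc13 protein encoded by Unc13d, and fused with the plasma membrane by SNARE proteins, among them syntaxin 11 with its partner Stxbp2. Inherited loss of perforin, of the docking and fusion proteins or of Lyst impairs killing and can cause haemophagocytic disease in humans. In bulk RNA, more cells with a transcript and more transcript per cell cannot be told apart.

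The fresh library held 20379385 counts and the expanded library 22204099. Values are CPM, counts per 1000000 of the library size scaled by the TMM method, and 1 count was worth 0.0465 and 0.0476 CPM. T cell identity was checked on the CD3 genes, of which none of 4 was 2-fold apart (summed CPM 2231 in fresh cells and 2094 after expansion), while the constant genes of the receptor were not analysed here. Markers of other spleen cells that also use several of these genes were higher in the freshly isolated library. All 20 macrophage and monocyte markers were in the table, summing to 1115 CPM in fresh cells and 27.6 CPM after expansion, where 12 were at 0 counts, Vcam1, Sirpa, Lyz2 and C1qa among them. The 14 B cell and plasma cell markers summed to 959 and 4.76 CPM, with 7 at 0 counts in expanded cells, Jchain, Cd79a, Ms4a1 and Pax5 among them. The 11 dendritic cell and MHC class II markers summed to 1301 and 26.7 CPM, and the 6 erythroid markers in the table to 88.1 and 0.0951 CPM. NK cell markers, of which 10 were listed, summed to 738 and 434 CPM, with the NK receptor gene Ncr1 at 24.6 and 0.190 CPM. Most of the expanded sum was Eomes (370 and 362 CPM), which is also among the cytotoxicity factors below. Of 8 measured NK markers, 6 were at least 2-fold lower and none higher. Among all genes averaging 1 CPM or more, 25.0% were lower and 22.4% higher by this measure. The 5 alpha-beta T cell markers in the table summed to 33.0 and 11.9 CPM. Of these, Cd4 (9.85 and 0.333 CPM), Cd8b1 (6.83 and 0.618 CPM) and Cd40lg (14.2 CPM and 0 counts) were lower after expansion, whereas Cd8a was higher. The part that other cells had in the levels below was not tested.

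Prf1 was 22.0-fold higher in expanded cells, Rab27a and Nkg7 were just over 2-fold higher, and Lyst, the regulator of granule size, was 4.98-fold lower. Levels of the priming and fusion genes Unc13d, Stxbp2, Vamp8 and Stx11 and of the matrix gene Srgn were under 2-fold apart. All 9 members had an average level of 1 CPM or more across the libraries, as did 11715 genes of the table, which form the background. Thus 3 of 9 members were at least 2-fold higher, against 22.4% of all genes, and 1 of 9 was at least 2-fold lower, against 25.0%. The other 5 were under 2-fold apart, as were 52.6% of all genes. At 4-fold, 1 member was higher, against 8.92% of all genes, and 1 was lower, against 13.5%. For a list of this length these counts are near the background, and nothing particular to the list is read from them. The same shares of all genes are the background for the counts in the related lists below, none of which was tested. The median of the log2 folds (expanded against fresh, prior count 2) was 0.49 for the 9 members and 0.035 for all 11715 genes. Without Prf1 the median of the other 8 was 0.29.

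**Figure D1:**
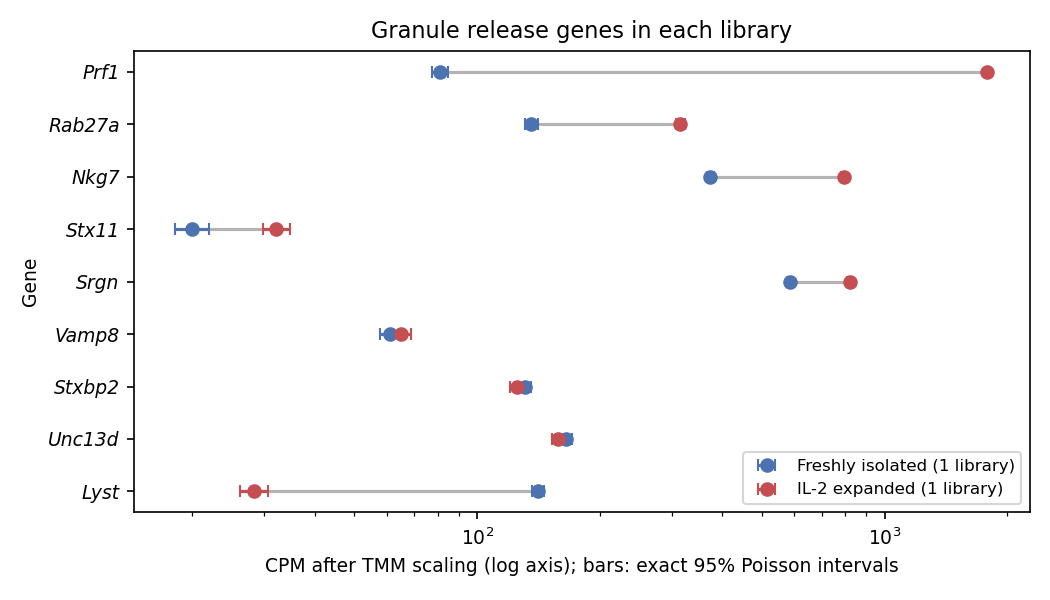
CPM of each of the 9 genes in the freshly isolated library (blue) and the expanded library (red) on a log axis, 1 library each, with exact 95% Poisson intervals that cover counting error only. Prf1 goes from 81.0 to 1786 CPM and Lyst from 141 to 28.4 CPM, while the points of Vamp8, Stxbp2 and Unc13d lie almost on top of each other.

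**Figure D2:**
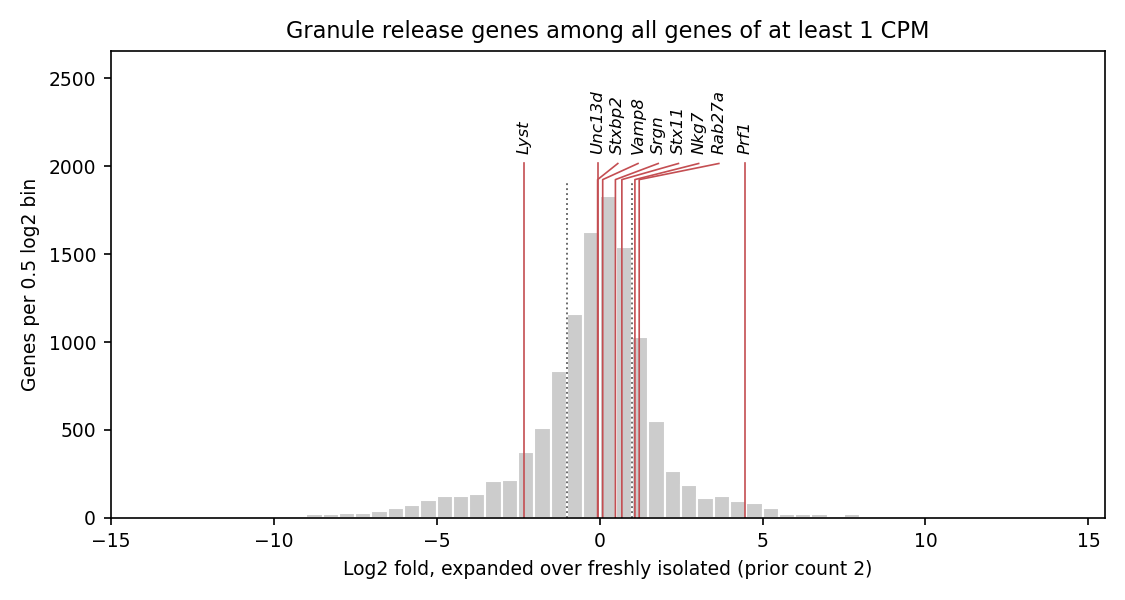
Histogram of the log2 fold of all 11715 background genes, in bins of 0.5, with the 9 members marked by red lines and 2-fold by dotted lines. Prf1, at 4.46, lies in the upper tail and Lyst, at -2.31, in the lower one, while the other members lie between -0.060 and 1.22.

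The start regions of the genes that were at least 2-fold apart are shown so that the regions of the 3 higher genes can be set beside that of the lower one. Each is the 250 bases before the gene's start from RefSeq on build GRCm38.p6, read 5′ to 3′ on the gene's own strand, which is the plus strand for all 4. The window is chr10:61297586-61297835 for Prf1, chr9:73044560-73044809 for Rab27a, chr7:43436888-43437137 for Nkg7 and chr13:13590159-13590408 for Lyst. Capitals mark matches to 5 short motifs searched on both strands: TTCNNNGAA (STAT), TGTGGT (RUNX), GGAAGT (ETS), GGTGTG (T-box) and TGANTCA (AP-1), of which GGAAGT can overlap the end of TTCNNNGAA.
Prf1: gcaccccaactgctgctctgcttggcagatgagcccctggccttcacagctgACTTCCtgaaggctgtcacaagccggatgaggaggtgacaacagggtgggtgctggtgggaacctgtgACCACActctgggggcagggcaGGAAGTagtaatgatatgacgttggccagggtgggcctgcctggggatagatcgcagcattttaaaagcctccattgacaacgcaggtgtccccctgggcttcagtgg
Rab27a: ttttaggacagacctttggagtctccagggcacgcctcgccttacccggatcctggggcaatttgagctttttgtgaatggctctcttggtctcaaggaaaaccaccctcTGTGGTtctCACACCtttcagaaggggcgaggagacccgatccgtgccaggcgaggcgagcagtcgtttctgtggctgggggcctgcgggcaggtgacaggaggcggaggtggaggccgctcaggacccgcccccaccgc
Nkg7: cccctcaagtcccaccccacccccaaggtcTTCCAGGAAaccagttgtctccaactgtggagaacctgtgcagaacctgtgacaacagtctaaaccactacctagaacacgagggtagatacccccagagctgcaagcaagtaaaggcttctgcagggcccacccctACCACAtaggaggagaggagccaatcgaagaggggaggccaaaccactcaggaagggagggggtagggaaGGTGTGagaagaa
Lyst: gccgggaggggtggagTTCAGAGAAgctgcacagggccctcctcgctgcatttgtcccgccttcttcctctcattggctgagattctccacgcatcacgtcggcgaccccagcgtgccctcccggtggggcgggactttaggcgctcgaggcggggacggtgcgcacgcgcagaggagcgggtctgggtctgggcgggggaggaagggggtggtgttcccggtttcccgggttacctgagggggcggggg
The Prf1 window held an ETS match from 198 to 193 bases before the start, a RUNX match from 130 to 125 and another ETS match from 108 to 103. That of Rab27a held a RUNX match from 140 to 135 and a T-box match from 131 to 126 bases before the start. That of Nkg7 held a STAT match from 220 to 212, a RUNX match from 83 to 78 and a T-box match from 13 to 8 bases before the start. The Lyst window held a STAT match from 234 to 226 bases before the start. The 3 genes that were higher thus each held a RUNX match, a motif found in 14.0% of the 32851 start regions of the same length in the table. ETS matches were in 19.7%, T-box matches in 16.3%, STAT matches in 7.02% and AP-1 matches in 6.75% of them. The shared RUNX match was picked out of the 5 motifs after the matches were seen, and no pattern is read from 3 genes. A match is a run of letters and was not tested as a binding site. Of the 5 members under 2-fold apart, Srgn held a RUNX match, Stx11 a T-box match, Vamp8 a STAT match and Stxbp2 none of the motifs, and the start region of Unc13d was not analysed here.

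Prf1 encodes perforin, which assembles into pores in the membrane of the target cell (chromosome 10, 61297836 to 61304263, plus strand, build GRCm38). It had 1744 counts, or 81.0 CPM, in fresh cells and 37541 counts, or 1786 CPM, after expansion. The ratio was 22.0 with a counting interval from 21.0 to 23.1 (exact Clopper-Pearson, 95%, counting error only). Of the 11715 genes, 2.34% had a higher log2 fold. NK cells and CD8 T cells also express Prf1. Klrb1c, an NK cell marker, was lower after expansion (53.3 CPM, against 179 CPM before). The CD8 genes went opposite ways. Cd8a went from 0.929 CPM up to 9.13 CPM, a ratio of 9.83 with counting limits of 6.19 and 16.5. Cd8b1 went from 6.83 CPM down to 0.618 CPM. How much NK cells or CD8 T cells added to the Prf1 difference was not tested. Prf1 made up 4.78% of the summed CPM of the 9 members in freshly isolated cells and 43.3% in expanded cells. The sum was 1695 CPM in fresh cells and 4125 CPM after expansion, or 1614 and 2339 CPM without Prf1.

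The difference in Prf1 was smaller than that of the main granzymes it delivers, Gzmb (1859-fold higher) and Gzma (1439-fold higher). Of 9 measured granzyme genes, 8 were at least 2-fold higher and 1 lower, and the 10 listed granzymes summed to 39.2 CPM in fresh cells and 54528 CPM after expansion. Per kb of gene length, the Gzmb level was 0.287 times that of Prf1 in freshly isolated cells and 24.2 times that of Prf1 in expanded cells. This ratio is taken within a library and does not depend on how libraries are scaled. The 2 other measured genes of the pore family went the other way: Mpeg1, the macrophage pore protein, stood at 117 CPM and 1 count, and the complement component C6 at 12.6 CPM and 0 counts, at least 88.2-fold lower against a floor of 3 counts. Mpeg1 is also one of the macrophage markers. Among 2542 others that averaged 100 CPM or more, the 3 whose log2 fold was nearest to that of Prf1 (4.46) were the mitotic kinesin gene Kif11 at 4.45 and the cholesterol synthesis genes Sqle at 4.43 and Cyp51 at 4.40, a likeness of fold alone over 2 libraries.

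Srgn encodes serglycin, the granule proteoglycan that holds perforin and granzymes (chromosome 10, 62494428 to 62507755, minus strand, 1.19 Mb from Prf1). It had 12623 counts, or 586 CPM, in fresh cells and 17270 counts, or 822 CPM, after expansion, 1.40-fold higher (interval 1.37 to 1.43). Per kb, Srgn exceeded Prf1 by 16.7 times in freshly isolated cells, and in expanded cells both were near the same level (ratio 1.06). With merged exon lengths from GENCODE M21 the ratio was 8.52 in fresh cells and 0.541 after expansion, where Prf1 was then the higher. The Gzmb level per kb was 0.0172 times that of Srgn in freshly isolated cells and 22.8 times in expanded cells, or 0.0396 and 52.6 times with GENCODE lengths.

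Serglycin carries chondroitin sulphate chains, and the enzymes that build them went both ways. Of 19 measured genes of 22 listed, 4 were at least 2-fold higher and 5 lower, with a median log2 fold of 0.34. Among the 5 was Ndst2 (32.8 and 11.6 CPM), which acts on heparin and heparan sulphate chains and not on chondroitin sulphate. The chain-building enzyme Chsy1 stood at 369 CPM in fresh cells and 765 CPM after expansion. Csgalnact1, which starts the chain, had 4 counts in freshly isolated cells and 5.47 CPM in expanded cells, and the sulphotransferase Chst12 stood at 26.4 and 67.4 CPM. The sulphotransferase Chst15 stood at 34.0 and 0.666 CPM, 51.1-fold lower (30.2 to 93.9), and Chst3 stood at 6.46 CPM and 0 counts, at least 45.2-fold lower. The xylosyltransferases Xylt1 (6.41 and 0.999 CPM) and Xylt2 (49.8 and 13.4 CPM), which attach the first sugar, were lower too. The macrophage markers were lower in the same library, and their part in these differences was not tested.

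Nkg7 encodes a small granule membrane protein needed for full granule release (chromosome 7, 43437138 to 43438246, plus strand). It had 8044 counts, or 374 CPM, in fresh cells and 16663 counts, or 793 CPM, after expansion, 2.12-fold higher (interval 2.07 to 2.18). With total-count scaling the ratio was 1.90, below 2-fold. A list of granule contents and membrane proteins other than the members also held genes of other kinds, among them the serpin genes Serpinb9 and Serpinb6b. Of its 15 measured genes, 6 were at least 2-fold higher (22.4% of all genes) and none lower (25.0%). The median log2 fold was 0.68. Among the 6 were Serpinb9, which shields killer cells from granzyme B (80.6 and 698 CPM), the tetraspanin gene Cd63 (2.46 and 17.2 CPM), the lysosomal membrane gene Lamp2 (50.2 and 198 CPM) and Calr, an endoplasmic reticulum chaperone that is also found in killer cell granules (703 and 2816 CPM). Lamp1, whose protein marks released granules at the cell surface, stood at 249 and 334 CPM. The killer cell protease gene Ctsw, at 429 and 220 CPM, and Fasl, which encodes the death ligand stored in granules, at 126 and 66.0 CPM, were just under 2-fold lower. Both were over 2-fold lower when libraries were scaled by total count.

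Rab27a encodes the GTPase that docks granules at the plasma membrane (chromosome 9, 73044810 to 73097614, plus strand). It had 2921 counts, or 136 CPM, in fresh cells and 6630 counts, or 315 CPM, after expansion, 2.32-fold higher (interval 2.22 to 2.43). Its close relative Rab27b was at 4.60 and 61.8 CPM, 13.4-fold higher (interval 11.0 to 16.6). Sytl2, an effector that links Rab27a to the plasma membrane, was 4.83-fold higher (83.6 and 404 CPM, interval 4.59 to 5.08), and Sytl3 was 2.87-fold higher (49.7 and 143 CPM). Other effectors of the same family were lower: Sytl1 stood at 29.4 and 11.1 CPM, and Sytl4 at 3.95 CPM and 0 counts, at least 27.7-fold lower.

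Unc13d encodes the Munc13 protein that primes granules for fusion and binds Rab27a (chromosome 11, 116062096 to 116077961, minus strand). It had 3553 counts, or 165 CPM, in fresh cells and 3328 counts, or 158 CPM, after expansion, a ratio of 0.959 (interval 0.915 to 1.01). A microRNA row, Mir5098, whose deposited span covers this gene, held 2 and 0 counts. Per kb, Rab27a and Unc13d were level in freshly isolated cells (ratio 1.03), and Rab27a was 2.49 times Unc13d in expanded cells. The Munc13 relatives were further apart than Unc13d itself. Baiap3 stood at 160 and 8.13 CPM, 19.6-fold lower (16.8 to 23.0), and the relative best known from nerve cells, Unc13a, was 9.96-fold higher (1.53 and 15.3 CPM, interval 6.95 to 14.7). Rab11a, of the recycling endosome on which Unc13d acts, stood at 55.8 and 138 CPM. Its relative Rab11b went the other way, at 104 and 42.0 CPM, 2.48-fold lower (2.29 to 2.69). Rab37, a GTPase of secretory granules, stood at 142 and 31.5 CPM. Of the 16 measured genes among 26 listed Rab27 and Munc13 partners, 5 were at least 2-fold higher, 9 lower and 2 between (median log2 fold -1.26). Counting only those that averaged 5 CPM or more, 5 were higher and 6 lower, with a median of -0.43.

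Stx11 encodes syntaxin 11, the target membrane SNARE of granule fusion (chromosome 10, 12939983 to 12964259, minus strand). It had the fewest counts of the members in freshly isolated cells, 430, and 676 in expanded cells, which is 20.0 and 32.2 CPM, 1.61-fold higher (interval 1.42 to 1.82). Stxbp2 encodes its Sec1/Munc18 partner, which keeps syntaxin 11 stable (chromosome 8, 3631160 to 3643644, plus strand). It had 2813 counts, or 131 CPM, in fresh cells and 2636 counts, or 125 CPM, after expansion, a ratio of 0.960 (interval 0.910 to 1.01). Per kb, Stxbp2 exceeded Stx11 by 5.83 times in fresh cells and 3.47 times after expansion. Vamp8 encodes a vesicle SNARE of endosomes and granules (chromosome 6, 72385221 to 72390667, minus strand). It had 1312 counts, or 61.0 CPM, in fresh cells and 1370 counts, or 65.2 CPM, after expansion, a ratio of 1.07 (interval 0.991 to 1.15). The counting intervals of Unc13d, Stxbp2 and Vamp8 all include a ratio of 1, and the sign of each depended on the scaling: the ratio of Vamp8 was 0.958 with scaling by total count, and those of Stxbp2 and Unc13d were both 1.02 with scaling by CD3 counts.

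Of the other Vamp genes named here, those with the larger differences were lower in expanded cells. Vamp2, a vesicle SNARE that also acts in killing, was 6.79-fold lower (206 and 30.3 CPM, interval 6.25 to 7.39). Vamp1 stood at 61.3 and 3.71 CPM, 16.5-fold lower (13.1 to 21.0), and Vamp5, which lies 4.8 kb from Vamp8, stood at 10.5 and 0.999 CPM. Vamp3 (98.1 and 81.2 CPM) and Vamp4 (53.4 and 38.3 CPM) were under 2-fold apart. The SNARE gene Vti1b (55.5 and 131 CPM) went the other way and was 2.36-fold higher (interval 2.20 to 2.52). Among vesicle SNAREs of earlier transport steps, Ykt6 (84.8 and 171 CPM) was 2.01-fold higher, close to the threshold. Sec22b (57.5 and 88.5 CPM) was 1.54-fold higher, under 2-fold. Per kb, Vamp8 was 0.817 times Vamp2 in fresh cells and 5.93 times Vamp2 after expansion, or 0.488 and 3.54 times with merged exon lengths from GENCODE M21. Of the Sec1/Munc18 relatives, Stxbp3 was 2.90-fold lower (53.8 and 18.6 CPM), while the syntaxin-binding tomosyn gene Stxbp5 (68.2 and 176 CPM) was higher. Snap23, the SNAP-25 relative of blood cells, stood at 44.5 and 57.9 CPM, and the syntaxin gene Stx2 at 27.9 and 8.99 CPM. Of 32 measured SNARE and Sec1/Munc18 genes outside the members, 5 were at least 2-fold higher, 7 lower and 20 between. Their median log2 fold was 0.085, and -0.072 when libraries were scaled by total count.

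Lyst encodes a very large BEACH domain protein that sets the size of secretory lysosomes (chromosome 13, 13590409 to 13777440, plus strand). It had 3037 counts, or 141 CPM, in fresh cells and 596 counts, or 28.4 CPM, after expansion, 4.98-fold lower (interval 4.56 to 5.44). Of the 11715 genes, 11.4% had a lower log2 fold. Its deposited length of 13.8 kb makes it the longest member. The 448 other genes of at least 10 kb had a median log2 fold of -0.47, and 75 of them (16.7%) were at least 4-fold lower. The part of transcript length and that of other spleen cells in the Lyst difference were not tested. The 7 measured BEACH domain relatives had a median log2 fold of -0.35. Of these, 3 were at least 2-fold lower (25.0% of all genes) and none higher (22.4%). These were Wdfy3, with 12.0 CPM and 2 counts (ratio of fresh to expanded 126, interval 34.5 to 1046), Wdfy4 at 24.4 and 6.33 CPM, and Nbeal2, needed for platelet granules, at 314 and 151 CPM. Lrba, which is needed for recycling of the checkpoint receptor CTLA-4, stood at 66.9 and 71.1 CPM.

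Subunits of the AP-3, BLOC and HOPS complexes, which build lysosome-related organelles, were mostly at similar levels. Of 25 measured genes, 2 were at least 2-fold higher (22.4% of all genes), 2 lower (25.0%) and 21 between (52.6%). Their median log2 fold was -0.11. The higher ones were Hps6 (8.59 and 21.4 CPM) and the AP-3 subunit Ap3m1 (37.6 and 79.9 CPM), and the lower ones were Hps3 (96.0 and 31.6 CPM) and the HOPS subunit Vps16 (135 and 45.9 CPM). Ap3b1, whose human counterpart is lost in a form of inherited albinism with defective killing, stood at 141 and 185 CPM. Genes of granule transport and polarity were 5 of 20 at least 2-fold higher (22.4% of all genes) and none lower (25.0%). Their median log2 fold was 0.32. The 5 included Arpc1b (303 and 606 CPM), which was barely over 2-fold. Dock8, an exchange factor for Cdc42 at the contact site, was 2.73-fold higher (333 and 907 CPM), the dynein adaptor Bicd2 stood at 56.4 and 136 CPM, and Arl8b, which couples lysosomes to kinesin, at 85.2 and 180 CPM. Its partners Kif5b (202 and 322 CPM) and Plekhm2 (47.1 and 24.9 CPM) were under 2-fold apart.

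**Figure D3:**
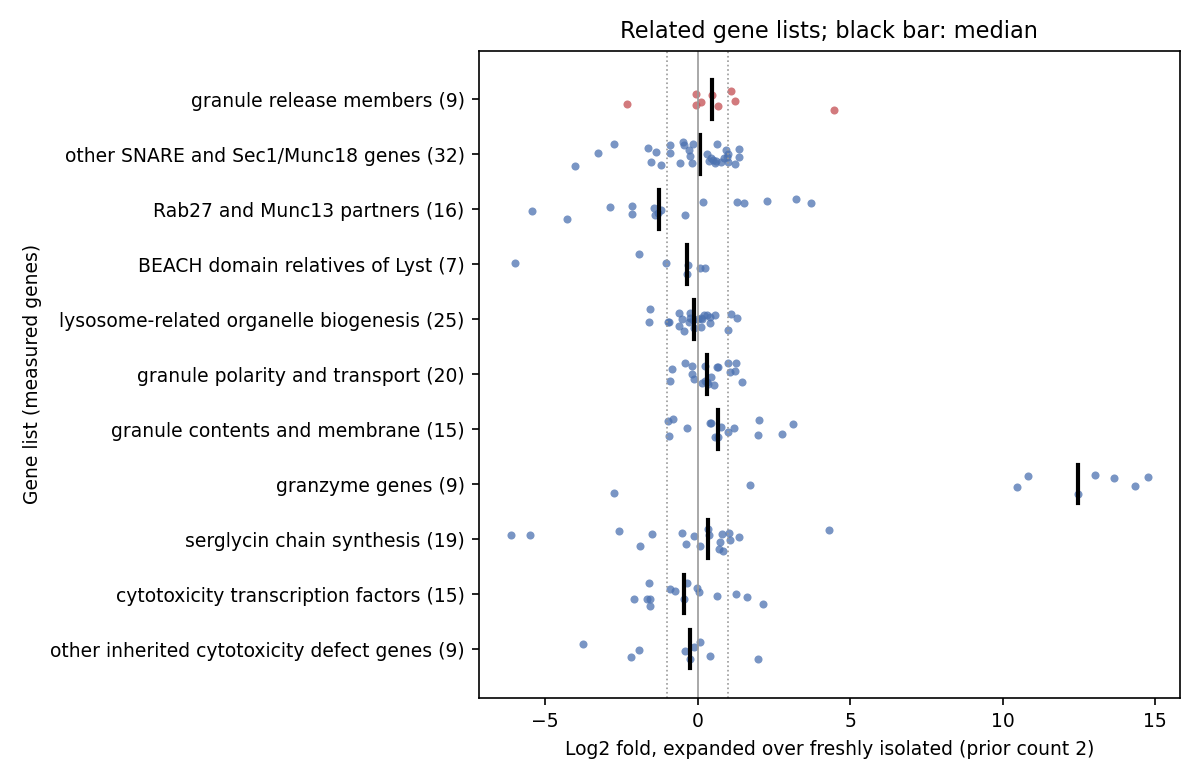
Log2 fold (expanded over freshly isolated) of each measured gene in the 9 granule release genes (red) and in 10 related lists (blue), with the number of measured genes in brackets, the median as a black bar and 2-fold as dotted lines. Most lists centre near 0 with genes on both sides, the Rab27 and Munc13 partners centre at -1.26 (at -0.43 for those averaging 5 CPM or more), and the granzymes reach beyond 10.

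Factors known to act on cytotoxic genes went both ways. Of 15 measured, 3 were at least 2-fold higher, 5 lower and 7 between (median log2 fold -0.44). The higher ones were Id2 (349 and 1537 CPM), Prdm1, which encodes Blimp-1 (21.6 and 66.7 CPM), and Nfil3 (105 and 253 CPM). Runx3 (264 and 271 CPM) and Eomes (370 and 362 CPM), which act on Prf1 in CD8 T cells, were at similar levels. Ets1 (1609 and 505 CPM), Mef2d (413 and 96.5 CPM), Stat5a (113 and 38.7 CPM) and Stat5b (235 and 79.3 CPM) were at least 2-fold lower, as was Zeb2 (39.0 and 12.9 CPM). Of 9 genes of inherited haemophagocytic or related disease that are not members, 1 was at least 2-fold higher, the magnesium transporter gene Magt1 (79.3 and 313 CPM). Cd27 (321 and 23.8 CPM), Sh2d1a, which encodes the SLAM adaptor SAP (71.5 and 15.6 CPM), and Slc7a7 (8.83 and 2.28 CPM) were lower, and Xiap, Coro1a, Rhog and Ap3b1 were among those under 2-fold apart.

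Levels of different genes can be set side by side only per length, here as CPM per kb of the deposited gene length. In the freshly isolated library the order was Srgn at 627, Nkg7 at 462, Vamp8 at 77.8, Stxbp2 at 48.6, Rab27a at 39.5, Unc13d at 38.5, Prf1 at 37.5, Lyst at 10.2 and Stx11 at 8.35 CPM per kb. The counting intervals of Rab27a (38.1 to 41.0), Unc13d (37.2 to 39.8) and Prf1 (35.8 to 39.3) overlap, so these genes had no order at this depth. In the expanded library the order was Nkg7 at 979.8, Srgn at 879, Prf1 at 826, Rab27a at 91.9, Vamp8 at 83.2, Stxbp2 at 46.7, Unc13d at 36.9, Stx11 at 13.4 and Lyst at 2.06 CPM per kb, with no overlap between neighbours. Prf1 went from the group with Rab27a and Unc13d, below Stxbp2, to the third place. Its level per kb exceeded that of 84.5% of the 11715 genes in fresh cells and 99.6% after expansion. Srgn and Nkg7 exceeded at least 99.4% of the genes in both libraries, whereas Lyst exceeded 51.3% in fresh cells and 21.9% after expansion. The deposited lengths of Srgn (0.935 kb) and Vamp8 (0.783 kb) are shorter than their merged exons in GENCODE M21 (2.196 and 2.311 kb). With those lengths, Nkg7 led in both libraries (409 and 867 CPM per kb), Prf1 at 691 stood above Srgn at 374 CPM per kb in expanded cells, and Vamp8 came seventh in both.

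**Figure D4:**
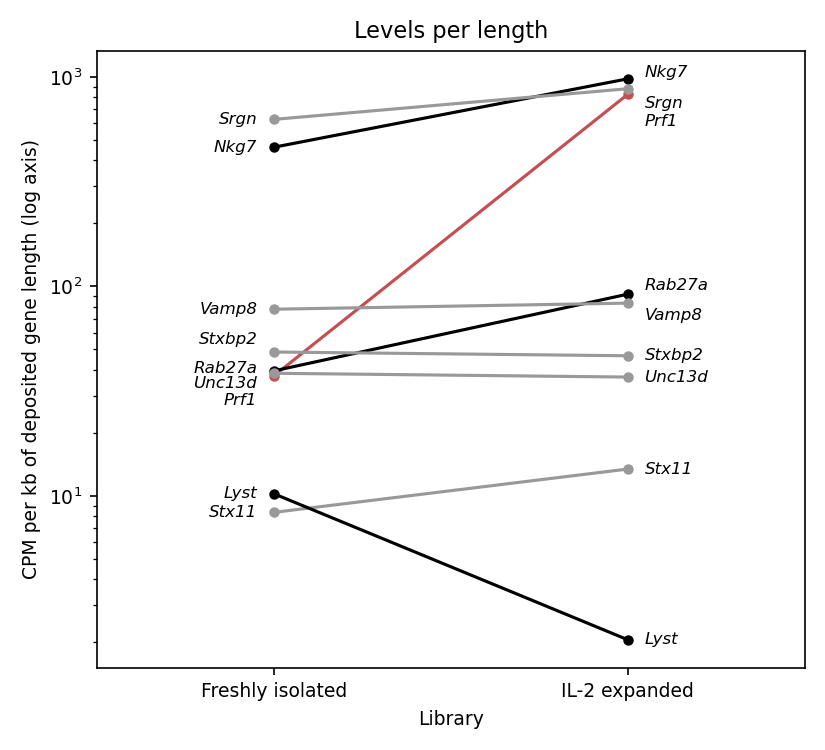
Level of each of the 9 genes as CPM per kb of deposited gene length (log axis) in the freshly isolated and the expanded library, with Prf1 in red, other genes at least 2-fold apart in black and the rest in grey. Prf1 leaves the group of Rab27a and Unc13d near 38 CPM per kb and joins Srgn and Nkg7, while Lyst moves below Stx11.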

How the data were processed

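Members and gene lists were chosen with earlier results of these data known. The values deposited by the authors are raw counts per gene, whole numbers and not normalised, 1 column per library, with a gene length in kb as a deposited column whose definition is unknown. Per the submitters' processing notes, the tools were edgeR 3.28.1, HTSeq 0.6.0, STAR 2.6.0 and bcl2fastq 2.18.0.12 and the builds mm10 and GRCm38. The sources used here do not give the role or settings of each tool, the annotation or the use of strand. Without strand, reads of overlapping genes cannot be told apart.

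Libraries were scaled here with TMM in edgeR 4.0.16 (R 4.3.3; factors 1.056 and 0.947). Log2 folds use a prior count of 2, printed ratios are plain ratios of CPM, and genes averaging 1 CPM or more were compared. Genes were counted by size of fold from the log2 folds. Intervals are exact 95% intervals (Clopper-Pearson for ratios, Poisson for levels) that cover counting error only, since reads are not independent molecules. A gene at 0 counts was set against a floor of 3 counts (0.139 and 0.143 CPM). Named genes are all members, from each list the 2 with the highest and the 2 with the lowest fold and list genes over 100 CPM, of which the text names a selection. Lrba, Vamp3, Vamp4, Snap23, Sec22b, Stx2, Stxbp3, Sytl1, Xylt1, Xylt2, Slc7a7, Zeb2, Ncr1 and some list genes outside this rule were chosen after their values were seen. Where a gene had several start regions in RefSeq, the one nearest to the deposited start was used. Alternatives were other library scalings (total count, DESeq2 1.42.0 size factors, upper quartile, total count without the 50 most abundant genes, CD3 counts), prior counts of 0.5 and 5, and filters of none and of 5 CPM. The calculation was tested on simulated data. Of the 8 members with a start region in RefSeq, the 4 at least 2-fold apart are printed.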

Additional observations from a re-analysis of the deposited data

How the results depend on the processing

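No paired analysis was possible because there is 1 library per group, and for the same reason no library could be left out. The Prf1 ratio of 22.0 was 19.8 with scaling by total count, 21.0 by upper quartile, 20.9 by total count less the 50 most abundant genes and 23.5 by CD3 counts, and lay within its counting interval under the other alternatives. The members' median log2 fold of 0.49 was 0.33 with scaling by total count, where the median of all genes moved from 0.035 to -0.12. The number of members at least 2-fold higher was 3 under all alternatives except scaling by total count (2), and the number at least 2-fold lower was 1 under all. The direction turned for Vamp8 with scaling by total count (0.958), for Stxbp2 (1.02) and Unc13d (1.02) with scaling by CD3 counts, and for the median of other SNARE and Sec1/Munc18 genes with scaling by total count (-0.072). Genes of that list at least 2-fold higher numbered 5, and 3 with scaling by total count, DESeq2, upper quartile or total count less the 50 most abundant genes. With scaling by total count, organelle biogenesis genes were 1 higher and 4 lower in place of 2 and 2, and polarity genes 3 and 1 in place of 5 and 0. Without the 50 most abundant genes, these were 4 organelle genes lower and 3 polarity genes higher. Granule contents had 2 genes lower in place of 0 under both of these and 1 by upper quartile, and serglycin chain genes had 2 higher in place of 4 under all 3. With a filter of 5 CPM, 3 serglycin chain genes were lower in place of 5, and 6 Rab27 and Munc13 partners in place of 9 (11 with no filter), whose median moved from -1.26 to -0.43. The cause was not tested.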

Other observations

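Expressed genes on either side of Prf1 were also higher in expanded cells, a comparison added after the values were seen. The nearest gene with a mean of at least 1 CPM before it, the extracellular protease gene Adamts14 (24.4 kb away), stood at 2.09 CPM in fresh cells and 43.4 CPM after expansion, a log2 fold of 4.32 beside 4.46 for Prf1. The nearest one after it, the phosphatase gene Pald1 (15.4 kb away), stood at 1.21 and 5.33 CPM. Such neighbours of the other 8 members had log2 folds from -5.87 to 1.72. None of these was at least 4-fold higher, while both neighbours of Prf1 were, against 8.92% of all genes. The Prf1 pair was looked at after its values were seen and was not tested, so nothing particular to Prf1 is read from it.

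Among marker genes of other blood cells, a few, picked after their values were seen, were higher in expanded cells than in fresh ones, against most of their lists. The neutrophil marker Ly6g had 0 counts in fresh cells and 17.8 CPM after expansion, at least 128-fold higher, while the other 8 neutrophil markers were at 0 counts there. The basophil protease gene Mcpt8 had 2 counts and 17.1 CPM, while Fcer1a, Ms4a2 and Gata2 were at 0 counts in expanded cells. The integrin gene Itgb3, listed as a platelet marker, stood at 112 and 601 CPM, while Pf4, Ppbp, Gp9, Gp1bb and Treml1 were at 0 counts in expanded cells.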
